A study of Homo sapiens with 18 samples.

Results

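The HOX genes of the HOXA, HOXB, HOXC and HOXD clusters were described across 6 tumour-bearing mice. Members were all rows of the count table annotated as protein coding whose symbol was HOX, a cluster letter and a number, which gave 39 of 58735 rows. They were 11 HOXA, 10 HOXB, 9 HOXC and 9 HOXD genes. One further row named HOXC5, a processed transcript with 0 counts in every library, was not a member.

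The tumour cells were OCI-Ly18, an established human line of diffuse large B-cell lymphoma (DLBCL) carrying green fluorescent protein (GFP), and all groups shared this 1 line. They grew under the skin of NSG mice, an immunodeficient strain that lacks lymphocytes of its own and keeps its myeloid cells and stroma. Treatment ran for 14 days from day 3 with vehicle (3 mice) or with tazemetostat (EPZ6438), a small-molecule inhibitor of the histone methyltransferase EZH2, at 150 mg/kg daily by oral gavage (3 mice). Both groups then received CART19 cells, T cells carrying a chimeric antigen receptor, and GFP+ cells were sorted 11 days after that infusion. Mice of an arm given UTD cells are also named in the labels and were not analysed here. The labels give neither the age of the mice nor whether dosing went on past the infusion. Libraries were made from total RNA with a NEB NEXT Ultra II kit. The comparison asked how earlier EZH2 inhibition altered gene expression in lymphoma cells that met CART19 cells, and there was no group without CART19 cells.

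HOX genes encode transcription factors that bind DNA through a homeodomain and set the identity of body segments in the embryo. They sit in 4 clusters that arose by duplication, and genes with the same number in different clusters, called paralogues, are the most alike. Low numbers lie at the end of a cluster that is used early and towards the head, high numbers at the end used later and towards the tail. The clusters are classical targets of Polycomb repression, in which the complex PRC2 methylates histone H3 through EZH2, and of activation by Trithorax proteins such as KMT2A. In blood, HOXA and HOXB genes are active in stem and progenitor cells and decline as cells mature, and HOXC4 is known in B cells for binding the promoter of the gene for activation-induced deaminase.

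Depth was 55712115 to 69816184 counts per mouse, the sum of 3 libraries, and 16124494 to 26336269 per library. The B-cell markers of the line were present: in CPM (counts per 1e6 of a library, adjusted by TMM factors), CD79B was at 1120 ± 280.4 in vehicle and 986 ± 123 in tazemetostat mice, MS4A1 at 314 ± 70.95 and 382 ± 7.61, CD22 at 238 ± 20.6 and 214 ± 38.0, and BCL6 at 100.5 ± 20.8 and 88.5 ± 6.36 (mean ± SD, n = 3 each, vehicle first here and below). These are the 4 of 7 listed markers with the smallest p. All 7 were tested, 4 had a positive fold change and 0 were called. Of 8 T-cell markers, CD3D and CD3G had 0 counts and the summed level was 10.8 to 14.98 CPM in vehicle and 13.2 to 14.8 CPM in tazemetostat mice, most of it from TRAC (11.8 ± 2.32 and 12.5 ± 0.764 CPM). Of 11 fibroblast and endothelial markers, COL3A1 and LUM had 0 counts, and the summed level was 14.2 to 20.8 CPM in vehicle and 20.9 to 22.5 CPM in tazemetostat mice, so the groups did not overlap. Of 6 myeloid markers MPO had 0 counts, and the summed level was 1.08 to 1.33 and 1.03 to 1.47 CPM. Within mice, the chi-square between 2 libraries, divided by its degrees of freedom, was 49.4 to 67.3 in the 2 pairs with library M_768_C of a tazemetostat mouse and 2.02 to 4.81 in the other 16 pairs. Without that library 0 HOX genes were called and the HOXA sum given below had a log2 ratio of 0.18, as with it. Values per mouse are given in the order M_766, M_769, M_770 for vehicle and M_767, M_768, M_774 for tazemetostat.

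Promoter sequence was available from RefSeq (GRCh38.p14) for 20 of the 39 members, in 27 windows that run from 250 bases before a gene's start to 50 after it. The windows were read for the letters CG, the pair at which DNA is methylated and which is dense at many Polycomb targets. Over all 35116 windows of the RefSeq table the median was 14 CG. Taking the richest window of each gene, the 10 members that passed the low-count filter had 11 to 44 CG (median 24.5) and the 10 members called silent below had 4 to 36 (median 24). CG number took overlapping ranges in genes that passed the filter and in silent genes. HOXA13 had the richest window, with 44 CG, a number reached by 4.19% of all windows. TATAAA, on either strand, stood in 5 of the 27 windows and in 11.53% of all.

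Upstream sequences are printed for 2 HOXD genes with reads, for a HOXD gene with none, and for a HOXB gene with none. Each runs 5′ to 3′ on the gene's own strand, ends at the start site or at the first annotated exon, and has every CG in capitals. HOXD13 (chr2:176092471-176092720, plus strand, 21 CG in 250 bases) and HOXD12 (chr2:176099545-176099729, plus strand, 12 CG in 185 bases) had reads in every library. The whole window of HOXD12 had 19 CG, beside a median of 14 over all windows. HOXD8 (chr2:176129455-176129693, plus strand, within an intron of HOXD-AS2, 25 CG in 239 bases) and HOXB1 (chr17:48531012-48531261, minus strand, 7 CG in 250 bases) had 0 counts. The other 3 sequences overlap no gene model of GENCODE release 29.
HOXD13: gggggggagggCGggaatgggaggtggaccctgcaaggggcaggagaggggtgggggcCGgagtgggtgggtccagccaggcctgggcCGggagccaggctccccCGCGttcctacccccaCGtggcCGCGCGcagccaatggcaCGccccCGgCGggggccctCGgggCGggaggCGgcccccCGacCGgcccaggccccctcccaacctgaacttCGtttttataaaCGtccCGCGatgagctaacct
HOXD12: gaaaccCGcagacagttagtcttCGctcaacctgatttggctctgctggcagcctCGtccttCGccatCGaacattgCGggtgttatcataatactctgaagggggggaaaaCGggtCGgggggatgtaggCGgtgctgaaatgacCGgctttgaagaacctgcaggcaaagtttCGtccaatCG
HOXD8: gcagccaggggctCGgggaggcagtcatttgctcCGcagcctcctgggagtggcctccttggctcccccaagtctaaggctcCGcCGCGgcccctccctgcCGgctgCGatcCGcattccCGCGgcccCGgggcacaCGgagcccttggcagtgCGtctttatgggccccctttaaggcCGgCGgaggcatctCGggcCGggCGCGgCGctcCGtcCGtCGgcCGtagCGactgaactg
HOXB1: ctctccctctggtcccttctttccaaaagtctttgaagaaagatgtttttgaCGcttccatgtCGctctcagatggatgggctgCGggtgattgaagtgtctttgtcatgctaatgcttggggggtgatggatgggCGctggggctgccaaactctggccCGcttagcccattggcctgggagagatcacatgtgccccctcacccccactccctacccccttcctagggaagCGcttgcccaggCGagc

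The silent HOXD8 stretch holds more CG than that of HOXD13. The window of HOXC4, the most abundant member, had 15 CG, and RefSeq gives HOXC5, which had 0 counts, the same window. That window lies within the span of HOXC6 and is not printed.

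A member was called silent when it was under 0.1 CPM in each of the 6 mice. By this rule 21 of 39 HOX genes (53.8%) were silent, against 5252 of 19951 protein-coding genes (26.3%), a description with no test. Of the 21, 14 had 0 counts in all 18 libraries, which allows a level of up to 0.00801 CPM over the 6 mice (3 counts, for counting error only). The other 7 held 1 to 12 counts in total. Just inside the limit were HOXD9, with a highest mouse of 0.0855 CPM, and HOXA9, with 0.0762 CPM, and just outside it HOXC6, with 0.103 CPM, and HOXC9, with 0.137 CPM. The low-count filter of the test kept 16 of the 39 members, or 2 fewer than were not silent, and kept 68.4% of protein-coding genes.

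The clusters differed in how much of each was silent. HOXA had 2 of 11 genes silent, HOXB 7 of 10, HOXC 5 of 9 and HOXD 7 of 9. HOXC6 and HOXC9 passed the limit in vehicle mouse M_769 only. Without that mouse HOXC had 7 of 9 silent, as many as HOXD, and all clusters together had 23 of 39. Genes with 0 counts numbered 0 in HOXA, 6 in HOXB, 4 in HOXC and 4 in HOXD. No test was made of these counts, since neighbouring genes are not independent.

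**Figure D1:**
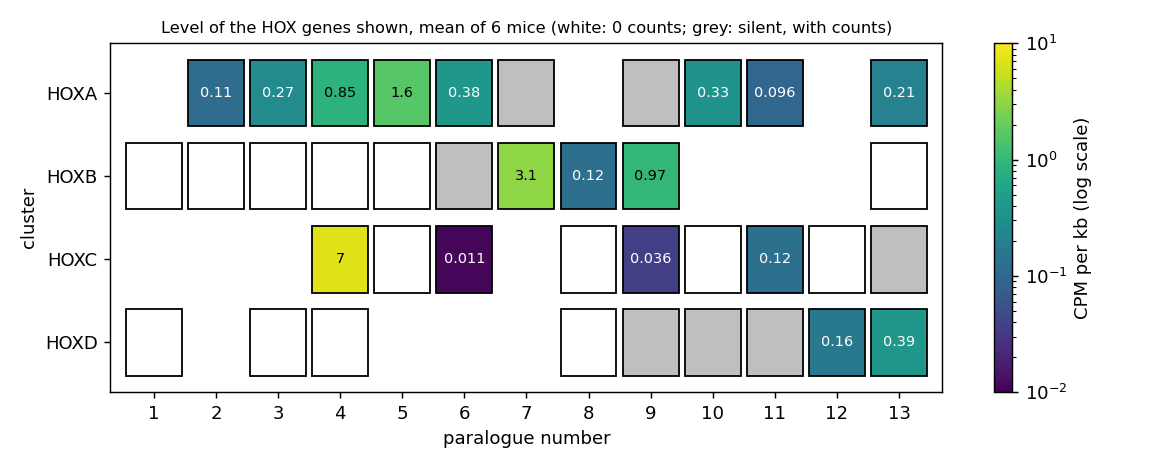
Boxes are 38 of the HOX genes, placed by cluster (vertical axis) and paralogue number (horizontal axis), with its level as CPM per kilobase on a log colour scale, the mean of 6 mice. White boxes had 0 counts and grey boxes were silent with a few counts. Outside HOXC the filled boxes form runs: HOXA2 to HOXA6, HOXA10 to HOXA13, HOXB7 to HOXB9, and HOXD12 with HOXD13. In HOXC the filled boxes HOXC4, HOXC6, HOXC9 and HOXC11 lie apart from each other.

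Genes above the limit lay in runs in HOXA, HOXB and HOXD and apart from each other in HOXC. In HOXA (chromosome 7) the run HOXA2 to HOXA6 and the run HOXA10, HOXA11 and HOXA13 had reads, and HOXA7 and HOXA9 between them held 9 and 12 counts. In HOXB (chromosome 17, 48528526 to 48729178) only HOXB7, HOXB8 and HOXB9 had a level above the limit. HOXB1 to HOXB5, which include the stem-cell regulator HOXB4, and HOXB13, a prostate regulator, had 0 counts, and HOXB6 had 2. In HOXD (chromosome 2, 176092891 to 176190907) HOXD12 and HOXD13 at the tail end had reads, HOXD9, HOXD10 and HOXD11 had 8, 2 and 1 counts, and HOXD1, HOXD3, HOXD4 and HOXD8 had none. In HOXC (chromosome 12, 53938765 to 54056030) HOXC4 and HOXC11 stood alone, HOXC9 and HOXC6 had 22 and 14 counts, HOXC13 had 6, and HOXC5, HOXC8, HOXC10 and HOXC12 had none.

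Shared exons limit what a count of 0 says for a few of these genes. How reads in exons of more than 1 gene were counted is not given in the sources used here. On their own strand, HOXD4 has 19.5% of its exon bases to itself (286 bases), HOXD3 37.8% (1342 bases) and HOXC5 40.1% (724 bases). They share the rest mainly with the read-through models AC009336.2 and AC012531.2, which had 0 counts too. If reads of both strands were counted together, HOXA7 (37.5%, with HOXA-AS3) and HOXD1 (41.9%, with HAGLR) also fall under 50% of unshared exon bases. The other 16 silent members had at least 50% of their exon bases to themselves on either strand.

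HOXC4 had the highest level per kilobase of the HOX genes and held 46.5% of all 15447 HOX counts. Its level was 18.5, 19.5 and 19.6 CPM in vehicle and 19.6, 18.4 and 19.5 CPM in tazemetostat mice. The groups overlap fully and all mice lie within a narrow band. Over the 18 libraries it ran from 16.6 to 21.3 CPM, with an SD of 1.22 CPM within mice and of 0.438 CPM between mouse means. All HOX genes together made 0.00413% of the counts.

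Between genes, levels were compared per kilobase of exon. HOXC4 had 7.04 CPM per kilobase (range over mice 6.75 to 7.19), HOXB7 3.06 (2.37 to 4.21), HOXA5 1.60 (1.26 to 2.13), HOXB9 0.966 (0.775 to 1.16) and HOXA4 0.850 (0.621 to 1.04). The ranges of HOXC4 and HOXB7, of HOXB7 and HOXA5, and of HOXA5 and HOXB9 did not overlap, whereas those of HOXB9 and HOXA4 did. A further 10 tested members were at 0.0960 (HOXA11) to 0.390 (HOXD13) CPM per kilobase. HOXC4 has 82.2% of its exon bases to itself, sharing others with HOXC6 and the processed transcript named HOXC5, not with the member HOXC5. HOXA4 has 69.0% to itself on its own strand and 52.7% on either.

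Tazemetostat and vehicle mice did not differ in any HOX gene past the threshold. With edgeR's quasi-likelihood test on the mouse sums, 0 of the 16 tested members had an adjusted p under 0.05, 0 had an unadjusted p under 0.05, and 0 were called by DESeq2, which gave an adjusted p for 12 of them, or by limma-voom. Over all tested genes 7 of 20301 were called (0.0345%). Groups that did not overlap, in either direction, were found in 0 of the 16 members and in 12.6% of all tested genes. The log2 fold changes, tazemetostat minus vehicle, ran from -0.45 to 0.39 with 10 positive and 6 negative and a median of 0.06, beside a median of -0.01 and 48.2% positive over all tested genes. Adjusted p ran from 0.881 to 0.995.

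**Figure D2:**
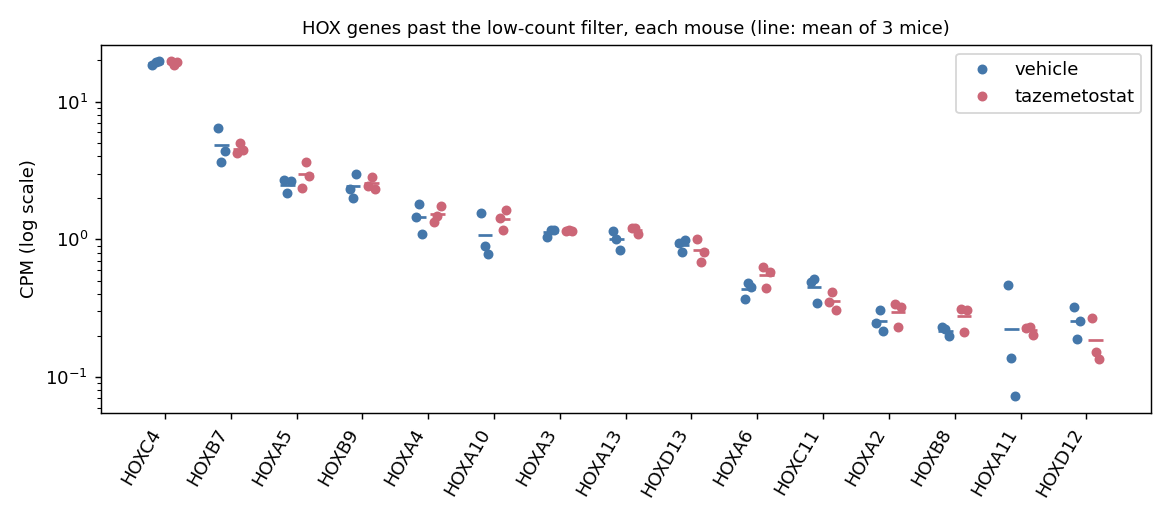
CPM on a log axis for 15 of the 16 HOX genes that passed the low-count filter, 1 point per mouse, blue for vehicle and red for tazemetostat, with lines at group means of 3 mice. The points of both groups overlap in every gene shown, from HOXC4 near 19 CPM to HOXD12 near 0.2 CPM.

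How small a change could be seen depended on the level. For HOXC4 the log2 fold change was -0.01 (SE 0.0933, 95% interval -0.21 to 0.20), an interval that leaves out a 1.5-fold change. All 16 intervals held 0, but 7 reached a 1.5-fold rise, 3 a 2-fold rise and 3 a 2-fold fall. The 23 members below the filter were not tested, and a rise from 0 to a level under the filter would not be seen.

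The HOXA genes at the head end overlapped between the groups. HOXA5, which acts in lung development, was at 2.69, 2.15 and 2.64 CPM in vehicle and 2.35, 3.63 and 2.90 CPM in tazemetostat mice. M_768 was the highest and M_767 lay among the vehicle mice (edgeR adjusted p = 0.899 for a log2 fold change of 0.24, which was 0.07 without M_768 and 0.39 without M_767). HOXA3, needed for the thymus and parathyroid, was at 1.05, 1.16 and 1.18 CPM in vehicle and 1.14, 1.17 and 1.15 CPM in tazemetostat mice, and M_766 alone stood lower.

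HOXA4 was at 1.46, 1.81 and 1.09 CPM in vehicle and 1.34, 1.46 and 1.74 CPM in tazemetostat mice, with the highest and the lowest mouse both in the vehicle group. HOXA2, a regulator of the branchial arches, was at 0.246, 0.308 and 0.217 CPM in vehicle and 0.338, 0.229 and 0.322 CPM in tazemetostat mice. HOXA6 was at 0.370, 0.479 and 0.452 CPM in vehicle and 0.633, 0.442 and 0.576 CPM in tazemetostat mice. In HOXA2 and HOXA6 mice M_767 and M_774 were the highest and M_768 lay among the vehicle mice. The log2 fold change of HOXA2 was 0.20, with 0.09 without M_767 and 0.36 without M_768.

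Of the tail-end HOXA genes, HOXA10 and HOXA11 depended on vehicle mouse M_766. HOXA10, a regulator of the uterus and of myeloid progenitors, was at 1.54, 0.889 and 0.778 CPM in vehicle and at 1.42, 1.16 and 1.64 CPM in tazemetostat mice. M_766 lay with the tazemetostat mice and the other 2 vehicle mice lay below all of them. Its log2 fold change was 0.39 (SE 0.286, edgeR adjusted p = 0.881) and 0.76 without M_766 (adjusted p = 0.388), and 0.21 without M_770.

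HOXA11, which acts in the limb and uterus, was at 0.462, 0.137 and 0.0724 CPM in vehicle and 0.225, 0.229 and 0.203 CPM in tazemetostat mice. The 3 tazemetostat mice were close together and lay between M_766 and the other vehicle mice. The log2 fold change was -0.06 with all mice and 1.06 without M_766. It had 85 counts over all mice. HOXA13, which shapes digits and the genital tract, was at 1.16, 1.01 and 0.832 CPM in vehicle and 1.21, 1.20 and 1.10 CPM in tazemetostat mice. M_766 lay among the tazemetostat mice, and edgeR gave an adjusted p of 0.917 for a log2 fold change of 0.23, which was 0.12 without M_770 and 0.36 without M_766.

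HOXB7, which per kilobase came next after HOXC4, was at 6.44, 3.62 and 4.38 CPM in vehicle and at 4.24, 4.98 and 4.42 CPM in tazemetostat mice. M_766 was again the highest mouse, the other 5 lay between 3.62 and 4.98 CPM, and the fold change of -0.08 turned to 0.20 without M_766. HOXB9 was at 2.33, 2.0 and 3.00 CPM in vehicle and 2.45, 2.85 and 2.34 CPM in tazemetostat mice, so that the vehicle mice spanned all tazemetostat mice. HOXB8 was at 0.231, 0.222 and 0.199 CPM in vehicle and 0.310, 0.213 and 0.305 CPM in tazemetostat mice, and only M_768 lay among the vehicle mice.

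HOXC11, HOXD12 and HOXD13, the other tested members of HOXC and HOXD, had negative fold changes that did not pass the test. HOXC11 was at 0.493, 0.513 and 0.344 CPM in vehicle and 0.352, 0.412 and 0.305 CPM in tazemetostat mice. M_770 lay among the tazemetostat mice, and edgeR gave an adjusted p of 0.912 for a log2 fold change of -0.34. HOXD13, which shapes the digits, was at 0.939, 0.803 and 0.995 CPM in vehicle and 0.999, 0.686 and 0.813 CPM in tazemetostat mice. HOXD12 was at 0.323, 0.188 and 0.253 CPM and at 0.267, 0.152 and 0.135 CPM. M_767 was the highest of all mice in HOXD13 and lay among the vehicle mice in HOXD12, so the groups overlapped (log2 fold changes -0.13 and -0.45, edgeR adjusted p 0.966 and 0.912). Single mice moved both: HOXD13 was at -0.28 without M_767 and -0.0062 without M_768, and HOXD12 at -0.82 without M_767 and -0.22 without M_766.

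**Figure D3:**
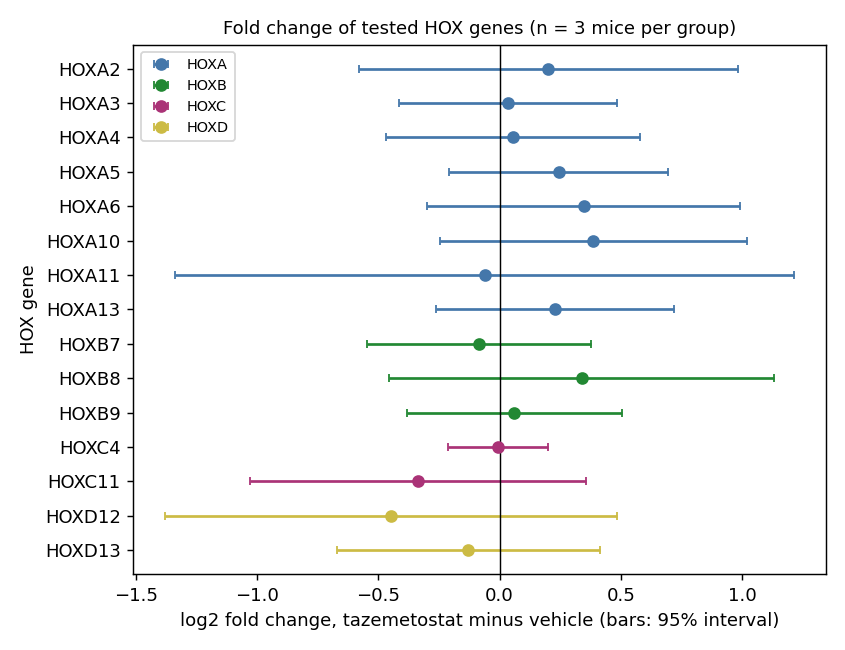
Log2 fold change of tazemetostat minus vehicle for 15 of the 16 tested HOX genes (horizontal axis), coloured by cluster, with bars for the 95% interval of edgeR's fit over 3 mice per group. Every interval crosses 0. The interval is narrow for HOXC4 and wide for the scarce HOXA11 and HOXD12.

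Silent genes with a few counts differed by few reads. HOXA9, the member best known from acute myeloid leukaemia, had 1, 0 and 0 counts in vehicle and 5, 5 and 1 in tazemetostat mice. HOXD9 had 1, 5 and 2 counts in vehicle and 0, 0 and 0 in tazemetostat mice. HOXA7 had 3, 3 and 1, and 0, 1 and 1. All 3 are silent genes near the floor of 3 counts per mouse, and no fold is given.

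Summed by cluster, HOXC held the largest part of the HOX counts with 47.7%, HOXA 31.5%, HOXB 18.1% and HOXD 2.73%. Per kilobase the shares were 41.3% for HOXC, 31.7% for HOXA, 23.8% for HOXB and 3.25% for HOXD. The HOXC part was nearly all HOXC4. The HOXA part was spread unevenly over 9 genes, with for instance 1023 counts in HOXA5 and 85 in HOXA11.

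The HOXA sum was 12.8, 12.1 and 11.5 CPM in vehicle and 13.2, 14.2 and 13.9 CPM in tazemetostat mice. Every tazemetostat mouse was above every vehicle mouse, by a log2 ratio of the means of 0.18. Of the 9 tested HOXA genes 8 had a positive fold change (median 0.20) and 0 had groups apart. The 5 tested protein-coding neighbours of HOXA were all positive too (median 0.12). Among them SKAP2 and TAX1BP1 were higher in every tazemetostat mouse than in every vehicle mouse. Of the 5 other tested rows inside the HOXA cluster 3 were positive (median 0.026). All 23 such rows summed to 4.197 to 4.883 CPM in vehicle and 4.116 to 4.475 CPM in tazemetostat mice, with overlap. Over all tested genes 12.6% had groups apart in either direction and 48.2% were positive. The groups of the HOXA sum lay apart in 9 of 10 alternatives and overlapped with upper-quartile scaling, where the ratio was 0.15. Alternatives that left out a mouse could not, apart from scaling, make separated groups overlap, so they say little here. The groups also lay apart with DESeq2 size factors, with library totals alone and without library M_768_C. No p is given for a sum over members chosen with results known. The summed fibroblast and endothelial markers were also higher in every tazemetostat mouse, as given above, and their part in the HOXA sum was not tested. These rows are human genes while the stroma of the host is of the mouse, so they do not measure host stroma directly. Whether mouse reads were counted in them was not tested. Of that list 7 genes were tested, 5 were positive and 0 were called. FN1 was at 8.73 ± 1.28 and 10.8 ± 0.524 CPM, PDGFRB at 0.247 ± 0.113 and 0.618 ± 0.178 CPM, COL1A2 at 2.965 ± 1.72 and 2.91 ± 0.834 CPM and PECAM1 at 0.825 ± 0.154 and 0.806 ± 0.212 CPM. In bulk samples fewer cells with a transcript and less of it per cell cannot be told apart.

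In the other clusters the groups overlapped. Those of HOXD lay apart in 2 of 10 alternatives, without M_769 and without M_767. Leaving out a mouse can by itself set overlapping groups apart, so these alternatives say little. HOXB summed to 7.49 ± 1.57 and 7.37 ± 0.590 CPM, HOXC to 19.8 ± 0.601 and 19.6 ± 0.641 CPM, and HOXD to 1.22 ± 0.114 and 1.02 ± 0.216 CPM (log2 ratio -0.26). The HOXD ratio was -0.44 without M_767 and -0.14 without M_768, and the HOXB ratio of -0.02 ran from -0.17 without M_769 to 0.14 without M_766. All members together summed to 40.7 ± 1.41 and 41.8 ± 0.291 CPM, a log2 ratio of 0.04. Their groups overlapped but lay apart in 2 of 10 alternatives, with library totals alone and without M_766.

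**Figure D4:**
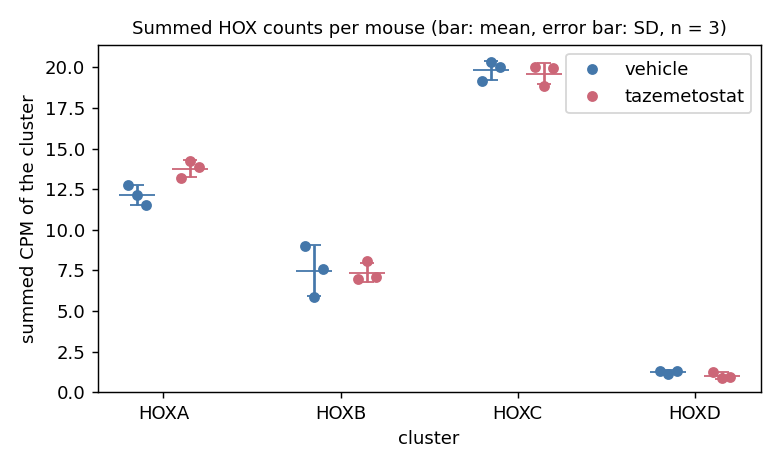
Summed CPM of each cluster (vertical axis, from 0) per mouse, with mean and SD of 3 mice per group. The tazemetostat points of HOXA, 13.2 to 14.2 CPM, lie above its vehicle points, 11.5 to 12.8 CPM, while the groups overlap in the other clusters.

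Other genes inside the clusters were mostly without reads as well. Of 62 such rows 37 had 0 counts and 13 were tested, with 0 called. HAGLR, a long noncoding RNA antisense to HOXD1 and HOXD3, was at 2.76 ± 0.204 and 2.18 ± 0.185 CPM. All 3 tazemetostat mice were below all vehicle mice (log2 fold change -0.34, edgeR adjusted p = 0.800); 12.6% of all tested genes had groups apart in either direction. HAGLROS, which lies within the span of HAGLR on the other strand, was at 5.26 ± 1.06 and 4.13 ± 0.771 CPM with overlap. Whether reads of HAGLR were counted in HAGLROS was not tested.

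Noncoding genes that share exon bases with tested members included HOXA-AS2 (0.261 ± 0.0877 and 0.272 ± 0.0769 CPM) beside HOXA3 and HOXA4. HOXA-AS3 (0.502 ± 0.114 and 0.510 ± 0.0312 CPM) lay beside HOXA3, HOXA4 and HOXA6. HOXA6 has 95.6% of its exon bases to itself on its own strand and 59.9% on either. Others were HOXA11-AS beside HOXA11 (0.257 ± 0.115 and 0.188 ± 0.114 CPM) and HOTTIP beside HOXA13 (0.243 ± 0.0713 and 0.287 ± 0.0432 CPM). HOXA10-AS, which shares bases with HOXA10, had 2 counts in all. Their counts and those of their partners cannot be told apart with certainty because the strand setting of the counting is not given in the sources used here. In the HOXB cluster AC103702.2 was at 5.37 ± 0.7504 and 6.03 ± 0.479 CPM. The hairpin row MIR196A1, within the span of HOXB7 and outside its exons, was at 0.265 ± 0.0716 and 0.195 ± 0.0597 CPM. Whether reads of HOXB7 were counted in it was not tested.

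Of the 24 nearest protein-coding neighbours, 3 on each side of each cluster, 22 were tested and 2 were silent, and these 2 were the homeobox genes EVX1 and EVX2. None was called. The 4 with the smallest p were SKAP1 beside HOXB (3.55 ± 0.481 and 2.39 ± 0.612 CPM, edgeR adjusted p = 0.655), CALCOCO2 beside HOXB (61.2 ± 1.31 and 71.5 ± 3.87 CPM), CBX5 beside HOXC (251 ± 29.01 and 203 ± 24.1 CPM) and LNPK beside HOXD (32.5 ± 3.02 and 37.9 ± 0.711 CPM).

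Cofactors that bind DNA with HOX proteins were mostly present. Of the 9 cofactor genes of the PBX, MEIS and PKNOX families 7 were tested and 0 called, with 5 positive. Their sum was 134 to 137 CPM in vehicle and 133 to 147 CPM in tazemetostat mice. PKNOX1 was at 34.5 ± 3.13 and 28.4 ± 1.55 CPM (log2 fold change -0.28, edgeR adjusted p = 0.614). MEIS2 was at 9.32 ± 0.717 and 11.5 ± 0.860 CPM (edgeR adjusted p = 0.700) and MEIS1, the partner of HOXA9 in leukaemia, was at 2.83 ± 0.382 and 3.24 ± 0.132 CPM.

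Regulators of the clusters were present apart from the CDX genes. Of 19 listed genes 16 were tested, 0 were called and 6 were positive (median -0.04), and the 3 silent ones were CDX1, CDX2 and CDX4, the activators of HOX genes in the embryo. MEN1, the scaffold of KMT2A, was at 132 ± 6.01 and 112 ± 3.38 CPM (log2 fold change -0.23, edgeR adjusted p = 0.646). CBX2, a reader in the Polycomb complex PRC1, was at 74.2 ± 3.00 and 65.4 ± 3.62 CPM. EED and EZH1, both of PRC2, had log2 fold changes of 0.22 and -0.21. EZH2, the target of the drug, was at 207 ± 9.01 and 208 ± 8.39 CPM.

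Of 13 homeobox relatives outside the clusters 10 were silent and 8 had 0 counts. Of the 2 tested, MNX1, a regulator of motor neurons and pancreas, was at 4.84 ± 1.13 and 3.51 ± 0.409 CPM (log2 fold change -0.46, edgeR adjusted p = 0.712), and GSX1 was at 0.379 ± 0.0687 and 0.255 ± 0.135 CPM.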

How the data were processed

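RNA of sorted OCI-Ly18 cells was measured in 18 libraries of 6 mice. The deposited table holds whole-number, unnormalized counts per gene, per the file headers, beside gene lengths in bases. The submitters' processing notes name hg38 and DESeq2 and give neither role nor version. How reads were aligned and counted, and with which annotation and strand, is not stated in the labels. All 58735 genes had the same start, end and strand in GENCODE release 29, and for all 39 HOX genes the deposited length equalled the union of its exons.

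The 3 libraries of a mouse were summed, since the mouse received the treatment, and 3 mice per group are the replicates. P-values measure the spread between these mice. edgeR 4.0.16 in R 4.3.3 was run on the sums (TMM factors of 0.983 to 1.02, a quasi-likelihood test after filterByExpr at minimum count 10, with Benjamini-Hochberg adjustment over the 20301 genes kept and a threshold of 0.05). CPM use the TMM factors. The approximate SE is log2 fold change over root F, and 95% intervals follow from it. CPM per kilobase divide by the deposited length. Silent means under 0.1 CPM in each mouse. A floor of 3 counts covers counting error only. limma 3.58.1 (voom, 18 libraries, mouse as random effect) and DESeq2 1.42.0 were alternatives. The fit was tested on simulated counts.

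The letters A, B and C of libraries are not explained. Same-letter libraries of different mice had a mean correlation of deviations of -0.0079, and different letters 0.0040, so letters did not pair samples. Members and lists were chosen with earlier results of these data known. HOX genes past the filter were named with their values, and of other lists those past the threshold and up to 4 with the smallest p. Genes that overlap a tested HOX gene were also named. EZH2, HAGLROS, HOXA10-AS, COL1A2, PECAM1, SKAP2, TAX1BP1 and the markers at 0 counts were named with their values known. Some genes that the rule selects are not reported here, and counts and sums over a list include them.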

Additional observations from a re-analysis of the deposited data

How the results depend on the processing

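The count of 0 called HOX genes held in all 15 alternatives of scaling, filter, test and mice, with the lowest adjusted p per alternative from 0.388 to 0.9998. At an unadjusted p under 0.05 stood HOXD9 without a low-count filter (8 counts in all) and HOXA10 without mouse M_766. The count over all genes was 7 in the main analysis, 252 with no low-count filter, 119 with DESeq2 and 256 with limma-voom, mouse as random effect. It was 224 when the library letter was added as a replicate block, and 0 to 59 with each mouse left out.

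Of the log2 fold changes, directions of small fold changes turned. HOXC4 (main -0.0054) was 0.0011 with library totals alone, 0.0056 with no filter, 0.0027 with DESeq2, 0.0016 with the block, and -0.021 to 0.023 with each mouse left out, among them 0.0083 without M_769, 0.013 without M_770 and 0.023 without M_768. HOXA3 was -0.0076 in the voom fit and -0.0072 (without M_766) to 0.07 with each mouse left out. HOXA11 was 0.56 in the voom fit, 0.45 with the block and -0.46 to 1.06 with each mouse left out, the highest without M_766. HOXA4 was -0.0064 without library M_768_C, -0.11 without M_770 and -0.053 without M_774, with at most 0.25 (without M_769). HOXB7 was -0.25 to 0.20 with each mouse left out, the highest without M_766. HOXB9 was -0.061 without M_769, -0.027 without M_768 and 0.24 without M_770. The cause was not tested. The other 215 fold changes kept their direction.

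The silent count depended on the limit. Of all 39 members 14 had 0 counts, 18 were under 0.05 CPM, 27 under 0.5 CPM and 30 under 1 CPM in each mouse. Of 19951 protein-coding genes 2902 had 0 counts, and they were not counted at 0.05, 0.5 or 1 CPM. HOXA had 0 silent genes when silent meant 0 counts or under 0.05 CPM, 4 under 0.5 CPM and 5 under 1 CPM. HOXD had 4 with 0 counts and 9 under 1 CPM, and HOXC had 8 under 1 CPM. The log2 ratio of the sum of all HOX genes was 0.018 to 0.075 with each mouse left out, the highest without M_766, and 0.0048 with upper-quartile factors. Depth limits statements on genes under about 0.1 CPM.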
